A study of Mus musculus with 8 samples.

Results

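The CC chemokines are small secreted proteins whose first cysteines stand side by side, and they draw leukocytes along a gradient by binding receptors coupled to inhibitory G proteins. In brain, microglia and the macrophages of its borders are main producers of several of them, and their genes are known targets of nuclear factor kappa B and of interferon-driven factors. The 10 ligands described here, Ccl2, Ccl3, Ccl4, Ccl5, Ccl6, Ccl7, Ccl8, Ccl9, Ccl12 and Ccl24, were taken by GENCODE mouse symbol from the 55385 genes of a count table, and each was found. All 10 had counts in some library and 9 passed the filter on low counts, with Ccl24 left out by it. RNA was measured in 8 libraries of wild-type primary mouse microglia, grown from the pooled neocortex and hippocampus of newborn brains in serum-containing medium, shaken from the flask after 12 days and kept for 3 days in plates. Of these, 4 were controls, called untreated in the labels and PBS-treated in the methods, and 4 had received 10 µg/ml IgG at day 15 in vitro (DIV15) for 24 h. The control and the IgG library of a replicate number carry the same date and form a pair. The strain and the sex of the cells are not given in the sources used here, and an expression change per cell and a change in the share of expressing cells cannot be told apart in bulk RNA.

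Library totals ran from 21287816 to 23703216 counts, and the 10 ligands held between 0.0778% and 0.129% of them. Mitochondrial transcripts made up 4.85% of the library IgG1 and 5.59% of IgG3, against 1.97% to 2.41% in the other 6 libraries. The fractalkine receptor Cx3cr1, which marks microglia, was at 442 ± 59.7 CPM in controls and 584 ± 97.4 CPM with IgG (SD, n = 4). Its log2 fold change was 0.39 (adjusted p 0.357), and the groups overlapped. By contrast, P2ry12 and Tmem119, which mark microglia in the intact brain, were scarce. P2ry12 was at 6.98 ± 0.761 CPM in controls and 10.8 ± 4.64 CPM with IgG (SD, n = 4; log2 fold change 0.54, adjusted p 0.461). Tmem119 was at 5.09 ± 0.512 CPM in controls and 7.39 ± 1.17 CPM with IgG (SD, n = 4; log2 fold change 0.53, adjusted p 0.367), with every IgG library above every control. CPM are counts scaled to the TMM-adjusted library size, as in edgeR. Of 10 lymphocyte markers, Cd3e, Cd3d, Cd3g, Nkg7, Gzma, Gzmb and Ncr1 had no count in any library. The whole list summed to 1.09 to 2.89 CPM in controls and 1.52 to 2.36 CPM with IgG. Most of this came from Klrb1c, an NK cell receptor, with 24 to 61 counts in controls and 30 to 44 with IgG (log2 fold change -0.13, adjusted p 0.904), and the B-cell gene Cd79a had 2 to 7 counts in every library.

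All members but Ccl24, on chromosome 5, lie on chromosome 11 in 2 clusters (GRCm38). The first holds Ccl2, Ccl7, Ccl12 and Ccl8, with start sites spread over 79.6 kb, and the second, 1415.3 kb further on, holds Ccl5, Ccl9, Ccl6, Ccl3 and Ccl4 over 132.1 kb. Ccl5 spans chr11:83525778-83530518 on the minus strand, Ccl7 chr11:82045712-82047525 and Ccl12 chr11:82101845-82103400 on the plus strand, and Ccl6 chr11:83587882-83593087 and Ccl9 chr11:83572919-83578636 on the minus strand. The codons of the adjacent cysteines that name the family lie in exon 2 of 3 in Ccl5, Ccl7 and Ccl12, and in exon 3 of 4 in Ccl6 and Ccl9. The coding stretches around them are shown for the members whose values are described most closely below, as 60 bases of the GENCODE transcript, 5′ to 3′, with the cysteine codons in capitals.
Ccl5: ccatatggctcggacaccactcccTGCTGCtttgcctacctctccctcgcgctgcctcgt
Ccl7: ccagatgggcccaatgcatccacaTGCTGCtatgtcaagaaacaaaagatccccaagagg
Ccl12: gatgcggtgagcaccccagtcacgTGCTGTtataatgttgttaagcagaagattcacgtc
Ccl9: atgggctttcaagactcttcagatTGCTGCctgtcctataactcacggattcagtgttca
Ccl6: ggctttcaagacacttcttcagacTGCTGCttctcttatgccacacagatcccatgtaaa

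Little transcript sequence was shared with other genes. The closest coding sequences in a global alignment were those of Ccl3 and Ccl4, identical at 68.4% of the aligned columns, followed by Ccl8 and Ccl12 at 65.2%. None of the 50-base stretches of the transcripts of 9 members occurred in transcripts of another gene, and in Ccl9, whose transcript is 3006 bases long, 2% of them did. Ccl2 overlaps Gm17268 on the other strand, which had no count in any library, and Ccl6 overlaps E230016K23Rik on the other strand, which had at most 11 counts.

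IgG-treated cultures contained more Ccl5 transcript than their paired controls, and Ccl5 was the member that passed the test over all genes. Ccl7 and Ccl12, ligands of Ccr2 that attract monocytes, were also higher in every pair but did not pass it. Ccl9, Ccl2 and Ccl3 were slightly higher in every pair, Ccl6 slightly lower in every pair, and Ccl4 and Ccl8 were of mixed sign. The test was the quasi-likelihood F-test of edgeR, with the pair as a block and Benjamini-Hochberg adjustment over 17537 genes. An adjusted p under 0.05 was reached by 1 of the 9 tested members, where 0.393% of all tested genes were called higher and 0 lower (676 lower at an unadjusted p under 0.05, 18 past adjustment in DESeq2 and 1 in limma). Without the block edgeR called 0 genes past adjustment, with 1230 at an unadjusted p under 0.05. Every edgeR call past adjustment given here thus rests on the pairing. The study's own criterion, an unadjusted p under 0.01 with a log2 fold change beyond 0.5, was met by Ccl5, Ccl7 and Ccl12, and 1.48% of all tested genes met it upward. The median log2 fold change of the 9 members was 0.29, against -0.01 over all tested genes. With at least 10 counts required in every library, which drops Ccl7 and Ccl8, the members' median was 0.16. Under scaling by total counts alone it was 0.19, against -0.11 over all tested genes. Within pairs 1 to 4 the members' median change was 0.46, 0.29, 0.38 and 0.20.

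**Figure D1:**
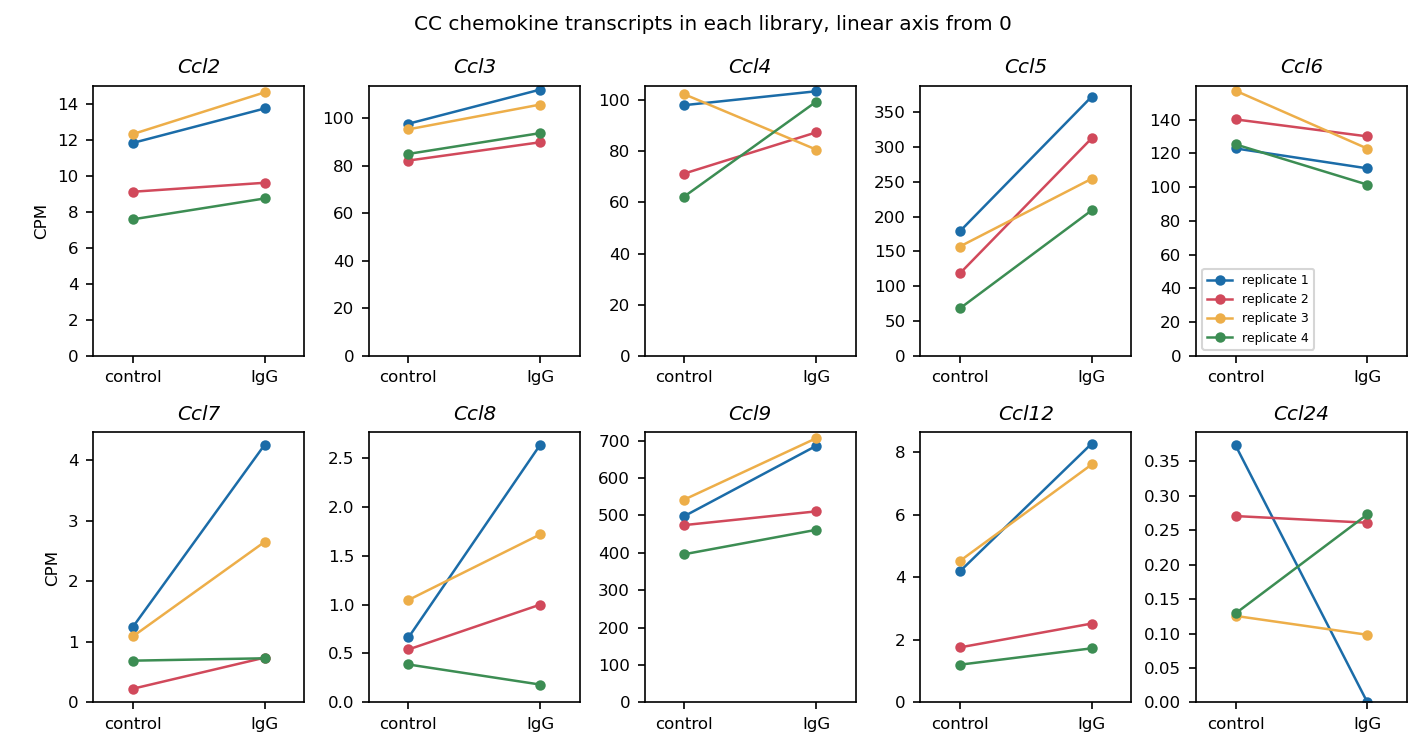
CPM of each of the 10 CC chemokines in every library, on linear axes that start at 0, with a line joining the control and the IgG library of a pair. The 4 IgG libraries of Ccl5 lie between 209 and 372 CPM, all above the control libraries, while the groups of every other member overlap.

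Ccl5 binds receptors that include Ccr1 and Ccr3 and attracts T cells, monocytes and eosinophils. Its level was 179, 118, 157 and 68.1 CPM in control libraries 1 to 4 and 372, 312, 254 and 209 CPM in IgG libraries 1 to 4. The lowest IgG library stood above the highest control, a pattern found in 2.6% of all tested genes. Ccl5 rose by a log2 fold change of 1.19 (SE 0.15, 95% interval 0.85 to 1.54), which is 2.28-fold, with an adjusted p of 0.0222. Within the pairs the log2 change was 1.06, 1.40, 0.70 and 1.62, so that the smallest and the largest rises came from replicates 3 and 4. Pairs 2 and 4, whose controls were the lowest, had the largest changes. The call depended on the pairing and on single pairs. Without the block the log2 fold change was 1.14 with an adjusted p of 0.643, without replicate 1 the adjusted p was 0.059, and without replicate 2 it was 0.224. Scaling by total counts alone gave 1.09 with an adjusted p of 0.0702. In replicates 2 and 4 alone, the pairs without the libraries of high mitochondrial share, the log2 fold change was 1.51, and every alternative left it between 0.91 and 1.51.

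Ccl7 and Ccl12, both of the first cluster, were scarcer than Ccl5 and varied more between control replicates. Ccl7 had 30, 5, 26 and 16 counts in controls 1 to 4 and 92, 17, 54 and 16 in IgG libraries 1 to 4. Its levels with IgG, from 0.728 to 4.25 CPM, overlapped those of controls, from 0.225 to 1.24 CPM, with replicates 2 and 4 the lowest in both groups. Ccl7 had a log2 fold change of 1.24 (SE 0.33, 95% interval 0.49 to 1.99), with an unadjusted p of 0.00496 and an adjusted p of 0.268. Its within-pair changes of 1.70, 1.40 and 1.22 in pairs 1 to 3 contrasted with 0.07 in pair 4. Without replicate 4 the log2 fold change was 1.54, and without the block and IgG replicate 1 it was 0.73.

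Ccl12, which is a functional relative of Ccl2 in mouse, had 4.19, 1.76, 4.52 and 1.21 CPM in controls 1 to 4 and 8.28, 2.52, 7.61 and 1.73 CPM with IgG. Each IgG library exceeded its own control, but IgG libraries 2 and 4 lay below controls 1 and 3. The log2 fold change was 0.72 (SE 0.17, 95% interval 0.34 to 1.11), with an unadjusted p of 0.00239 and an adjusted p of 0.182. Without the block it was 0.43 when IgG replicate 1 was left out and 1.07 when control replicate 3 was. The within-pair changes were 0.97, 0.50, 0.74 and 0.49, larger in the pairs with the high mitochondrial shares. Mitochondrial share and GC content moved with these pairs, and their part in the result was not tested beyond the values that follow. Across 15706 genes the within-pair change correlated with GC content at a Spearman's rho of -0.42, -0.03, -0.42 and 0.34 in pairs 1 to 4, and the genes are not independent replicates. Removing each library's trend on GC content and length left within-pair changes of 0.79, 0.47, 0.56 and 0.52 for Ccl12 and of 1.18, 1.38, 0.84 and 1.43 for Ccl5.

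Ccl2, the main monocyte attractant of the family, was at 11.8, 9.11, 12.3 and 7.58 CPM in controls and 13.7, 9.61, 14.6 and 8.74 CPM with IgG. It was higher in each pair by 0.08 to 0.25, less than the spread between replicates, and the groups overlapped. The log2 fold change of 0.19 (SE 0.11) had a 95% interval of -0.07 to 0.44 and an adjusted p of 0.582. For Ccl2 without the block it was 0.06 when control replicate 4 was left out and 0.31 when IgG replicate 4 was. Ccl8, a ligand of Ccr8 in mouse, had 16, 12, 25 and 9 counts in controls and 57, 23, 35 and 4 with IgG. Its changes ran from 1.86 in pair 1 to -0.81 in pair 4, and the log2 fold change of 0.90 (SE 0.42, 95% interval -0.07 to 1.86) had an adjusted p of 0.509. Without replicate 1 the log2 fold change of Ccl8 was 0.43. Without the block it was 0.53 when IgG replicate 1 was left out and 1.42 when IgG replicate 4 was. In replicates 2 and 4 alone, the pairs of low mitochondrial share, it was 0.21 for Ccl8, 0.73 for Ccl7, 0.52 for Ccl12 and 0.16 for Ccl9.

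**Figure D2:**
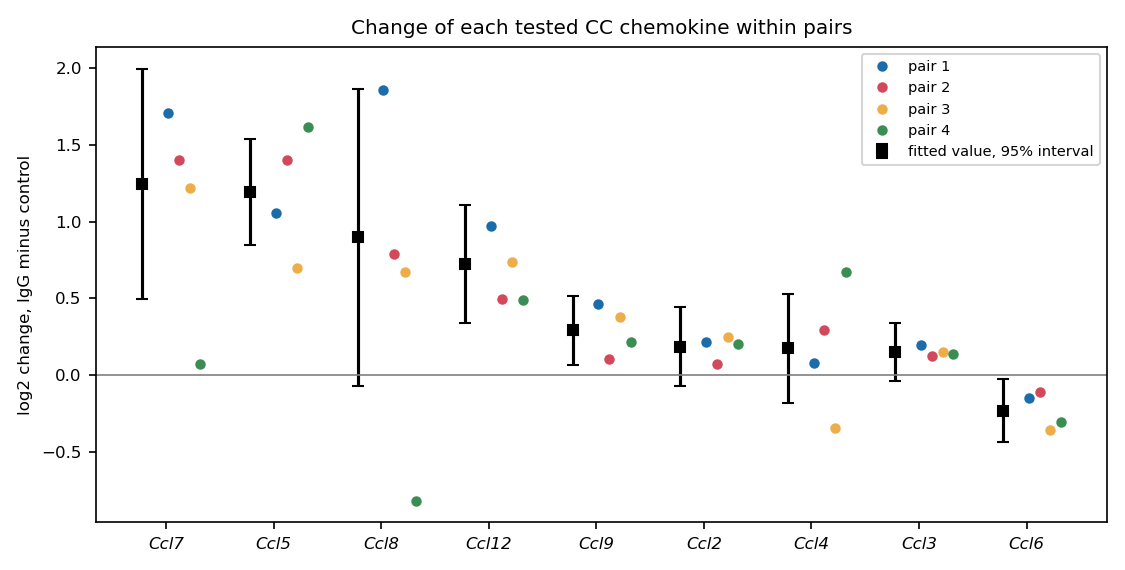
Log2 change of IgG minus control within pairs 1 to 4 for the 9 tested members (coloured points), with the fitted log2 fold change and its 95% interval (black squares). All 4 points of Ccl5 and Ccl12 lie above 0, those of Ccl6 lie below 0, and those of Ccl8 run from -0.81 to 1.86.

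In the second cluster, Ccl9 and Ccl6, which both bind Ccr1 and have 4 exons in the transcripts used, had values of opposite sign. Ccl9 was the member with the most counts, at 498, 474, 542 and 396 CPM in controls and 686, 511, 706 and 462 CPM with IgG. The IgG libraries 1 and 3 stood above all controls, and the IgG libraries 2 and 4 lay within the control range. Its log2 fold change was 0.29 (SE 0.098, 95% interval 0.07 to 0.52), with an unadjusted p of 0.0167 and an adjusted p of 0.397. After the GC and length correction the within-pair changes of Ccl9 were 0.27, 0.10, 0.18 and 0.31. Ccl6 was at 123, 140, 157 and 125 CPM in controls and 111, 130, 123 and 101 CPM with IgG, the reverse direction in each pair. Its log2 fold change was -0.23 (SE 0.089, 95% interval -0.43 to -0.02), with an unadjusted p of 0.0326 and an adjusted p of 0.464.

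Ccl3 and Ccl4, known as macrophage inflammatory proteins, did not pass the test. Ccl3 had 97.7, 82.2, 95.3 and 85.0 CPM in controls and 112, 89.9, 105.7 and 93.7 CPM with IgG, higher by 0.13 to 0.20 in each pair. Its log2 fold change was 0.15 (SE 0.082, 95% interval -0.03 to 0.34; adjusted p 0.546). Ccl4 had 98.0, 71.3, 102 and 62.3 CPM in controls and 103, 87.4, 80.7 and 99.4 CPM with IgG, lower in pair 3 and higher in the others. Its log2 fold change was 0.18 (SE 0.15, 95% interval -0.18 to 0.53; adjusted p 0.684) and turned to -0.01 without replicate 4. In replicates 2 and 4 alone, chosen after seeing the data, the log2 fold change of Ccl4 was 0.48 (adjusted p 0.0594), its highest value under the alternatives. So few libraries give a poor estimate of the spread, and this adjusted p is a weak guide. Ccl24, a ligand of Ccr3 known from alternatively activated macrophages, had 9, 6, 3 and 3 counts in controls and 0, 6, 2 and 6 with IgG. At this depth a count of 0 in library IgG1 allows up to 0.139 CPM, and Ccl24 was not tested.

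Higher in all 4 pairs were 6 of the 9 tested members, against 10.4% of all tested genes. An unadjusted p under 0.05 was found for 4 members upward (Ccl5, Ccl7, Ccl12 and Ccl9) and 1 downward (Ccl6), against 10.2% of all tested genes in either direction. Both clusters held members with large and with small changes. In the first, the fitted log2 fold changes in the order of the genes were 0.19, 1.24, 0.72 and 0.90 for Ccl2, Ccl7, Ccl12 and Ccl8. In the second they were 1.19, 0.29, -0.23, 0.15 and 0.18 for Ccl5, Ccl9, Ccl6, Ccl3 and Ccl4.

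**Figure D3:**
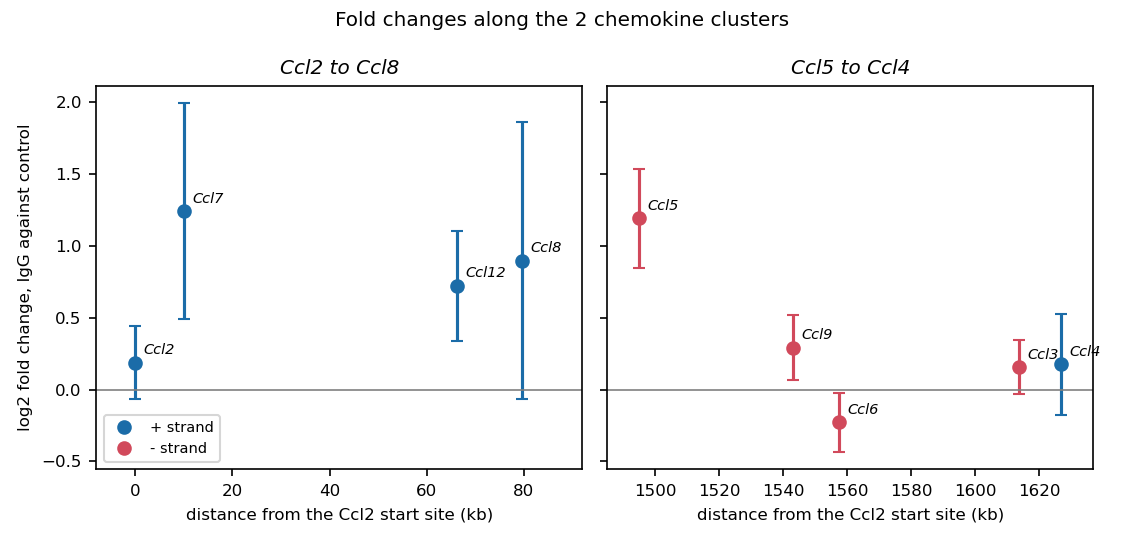
Fitted log2 fold change with its 95% interval for the 9 tested members by the distance of their start site from that of Ccl2 in kb, coloured by strand, with the first cluster on the left and the second on the right. Ccl2 at 0.19 and Ccl7 at 1.24 have starts 10.1 kb apart, Ccl3 and Ccl4 lie at 0.15 and 0.18, and differences between neighbours were not tested.

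The members also varied together between replicates, a pattern looked at after their values were seen. Among control libraries, 8 of the 9 tested members, all except Ccl6, were higher in replicates 1 and 3 than in replicates 2 and 4, which held for 22.3% of all tested genes. With IgG it held for 6 members (Ccl2, Ccl3, Ccl7, Ccl8, Ccl9 and Ccl12) and for 33.6% of all tested genes. The spread between control libraries was widest for the scarce members Ccl7 and Ccl12. The highest control library exceeded the lowest by 5.52-fold for Ccl7 and 3.75-fold for Ccl12, and by 1.19-fold for Ccl3. For the abundant Ccl5 it was 2.62-fold, close to the 2.70-fold of the scarce Ccl8.

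To compare members with each other, levels were taken as CPM per kb of exon. In controls Ccl9 stood at 157 ± 20.1, Ccl5 at 136 ± 50.6, Ccl4 at 127 ± 29.8 and Ccl3 at 118 ± 9.93 CPM per kb (SD, n = 4), and neighbours in this order overlapped, while every Ccl9 library lay above every Ccl3 library. Ccl6 followed at 75.9 ± 8.79 CPM per kb, and Ccl2 at 8.97 ± 1.97 and Ccl12 at 5.44 ± 3.13 CPM per kb overlapped each other. Ccl8 at 1.29 ± 0.551, Ccl7 at 1.01 ± 0.569 and Ccl24 at 0.173 ± 0.0926 CPM per kb formed the low end, where neighbours in the order again overlapped. With IgG, Ccl5 had the highest mean, 299 ± 73.8 CPM per kb, above Ccl9 at 194 ± 40.5, although the libraries of these members overlapped. The share of Ccl5 in the summed level of the members was 21.0 ± 4.77% in controls and 34.7 ± 4.60% with IgG (SD, n = 4). The order rests on the length used, since per kb of the longest-coding transcript, 532 bases for Ccl5, Ccl5 already led in controls at 245 ± 91.3, with Ccl9 at 159 ± 20.4.

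**Figure D4:**
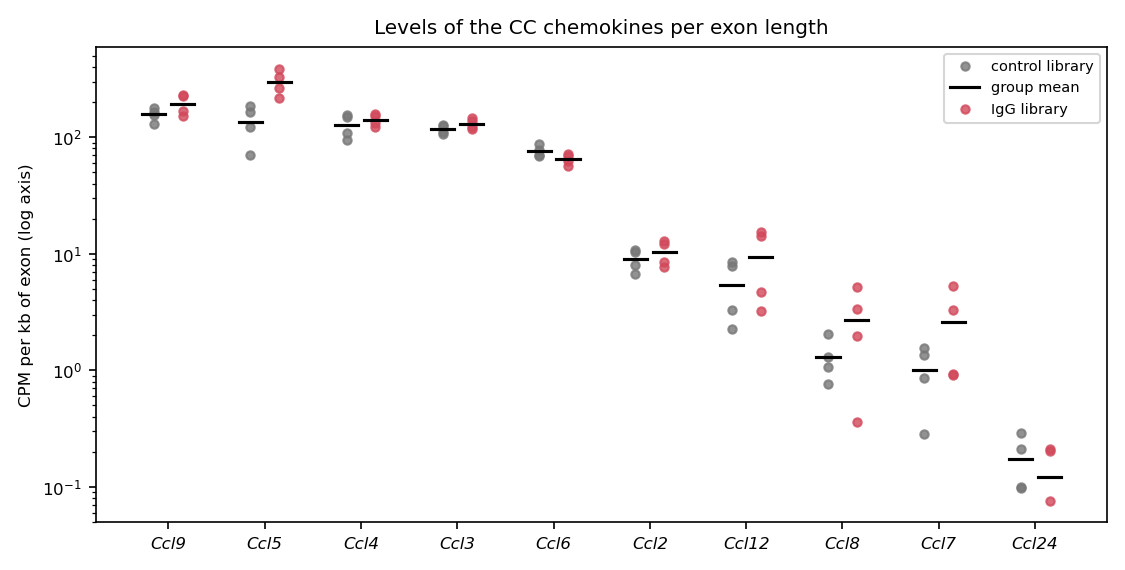
Level of each member in CPM per kb of exon on a log axis, in control (grey) and IgG (red) libraries, with the group mean as a bar and the members in the order of the control means. Ccl24 had no count in library IgG1, which cannot be drawn on this axis, and Ccl5 moves from 136 in controls to 299 with IgG.

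Promoter entries of RefSeq, 250 bases before to 50 bases after the start (GRCm38.p6), matched 5 of the 10 members: Ccl3, Ccl6, Ccl8, Ccl9 and Ccl12. The 100 bases before the start are shown for Ccl12 (chr11:82101745-82101844, plus strand), which met the study's criterion, and for its neighbour Ccl8 (chr11:82115085-82115184, plus strand), both with the letters TATAAA in capitals.
Ccl12: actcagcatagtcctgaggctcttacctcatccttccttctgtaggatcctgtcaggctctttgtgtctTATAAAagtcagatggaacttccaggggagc
Ccl8: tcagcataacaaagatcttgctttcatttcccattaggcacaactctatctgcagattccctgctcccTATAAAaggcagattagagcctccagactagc
The letters TATAAA, searched on both strands, began at position -31 from the start of Ccl12 and -32 from that of Ccl8, lay at -224, -94 and -92 in Ccl9, and occurred in 13.6% of the 32851 promoter entries. In the same way, the interferon response core GAAANNGAAA, present in 3.44% of all entries, and the STAT letters TTCNNNGAA, present in 8.3%, matched none of the 5 members within 300 bases. The AP-1 letters TGANTCA, in 7.81% of entries, and the kappaB consensus, in 4.51%, matched Ccl9 only among these 5.

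The other CC ligands had few counts. Of 13 further ligands listed, 12 were found in the table, and Ccl11, Ccl21a and Ccl26 had no count in any library, which allows up to 0.124 to 0.147 CPM in a library. Ccl1, Ccl17, Ccl19, Ccl20, Ccl21b and Ccl28 had at most 5 counts in any library. The 3 tested ones had log2 fold changes of -0.37 for Ccl22, -0.13 for Ccl25 and -0.66 for Ccl27a, with adjusted p of 0.647, 0.775 and 0.561, and none had an unadjusted p under 0.05.

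Transcripts of the receptors were also measured, since microglia can respond to these ligands themselves. Of 15 CC receptors 6 were tested and 0 passed adjustment in edgeR, DESeq2 or limma. In edgeR 2 had an unadjusted p under 0.05, Ccr2 and Ccr3, against 10.2% of all tested genes in either direction. Ccr1 had a log2 fold change of 0.08 (SE 0.15) and Ccrl2 of -0.02 (SE 0.096), and the sign of both turned under alternatives, that of Ccr1 under scaling by total counts. Ccr2, the receptor of Ccl2, Ccl7 and Ccl12, had 23, 31, 35 and 17 counts in controls and 17, 11, 17 and 12 with IgG (log2 fold change -0.76, SE 0.31, adjusted p 0.472). Ccr3, a receptor of Ccl5 and Ccl24, had 12, 6, 16 and 7 counts in controls and 27, 11, 18 and 13 with IgG (log2 fold change 0.87, SE 0.32, adjusted p 0.45). Ccr8 had 4 counts in all libraries together and Ackr2, a receptor that clears CC ligands, had none.

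Genes downstream and upstream of the ligands were counted from lists. Of 20 genes of chemokine receptor signalling, all tested, 18 had a log2 fold change above 0, as had 49.1% of all tested genes, and the median was 0.15. Past adjustment, against 0.393% of all tested genes called higher, was 1 of the 20: Rac2, a GTPase of leukocyte migration, rose by a log2 fold change of 0.64 (SE 0.095, adjusted p 0.0381), from 251 ± 18.8 to 393 ± 50.5 CPM (SD, n = 4). Of 19 genes of the nuclear factor kappa B pathway 0 passed in edgeR and 1 had an unadjusted p under 0.05. This was Nfkbiz, an inducible co-factor at 0.64 (adjusted p 0.052), which passed in DESeq2 and limma, and the median of the list was 0.03. Of 8 interferon factors Irf7 passed, at a log2 fold change of 1.13 (SE 0.090, adjusted p 0.00593), and of 4 tested cytokines known to induce chemokines Il1b passed, at 0.66 (SE 0.10, adjusted p 0.0466). The cytokine Csf1, of the same list, was lower in all 4 pairs, at -0.39 (SE 0.12, adjusted p 0.344). With the block, Rac2 lost its call under total counts alone (adjusted p 0.0601) and without replicate 1, 2 or 3 (up to 0.239), and Irf7 lost it without replicate 2 (0.117). Il1b lost it in 4 of 10 other settings (up to 0.118) and without replicate 1, 2 or 3 (up to 0.248). Of 7 tested genes that trim or bind chemokines, 0 passed in edgeR, DESeq2 or limma and 3 had an unadjusted p under 0.05 in edgeR. The matrix metalloproteases Mmp14 and Mmp9 were higher, with log2 fold changes of 0.45 (SE 0.10, adjusted p 0.168) and 0.36 (SE 0.15, adjusted p 0.472). Mmp12, a macrophage elastase, was lower, at 2335 ± 268 CPM in controls and 1825 ± 129 CPM with IgG (SD, n = 4; adjusted p 0.301). Among 8 tested chemokines of other classes 0 passed in edgeR and 4 had an unadjusted p under 0.05, against 10.2% of all tested genes. Of these 4, 3 were higher and 1, Cxcl14, was lower, at -0.35 (SE 0.15, adjusted p 0.479). Cxcl9 had a log2 fold change of 1.63 and Cxcl13 of 1.08 (both adjusted p 0.0509), and both passed in DESeq2 and limma. Cxcl16, at 0.43 (adjusted p 0.127), passed in DESeq2 alone of the 3 tools.

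**Figure D5:**
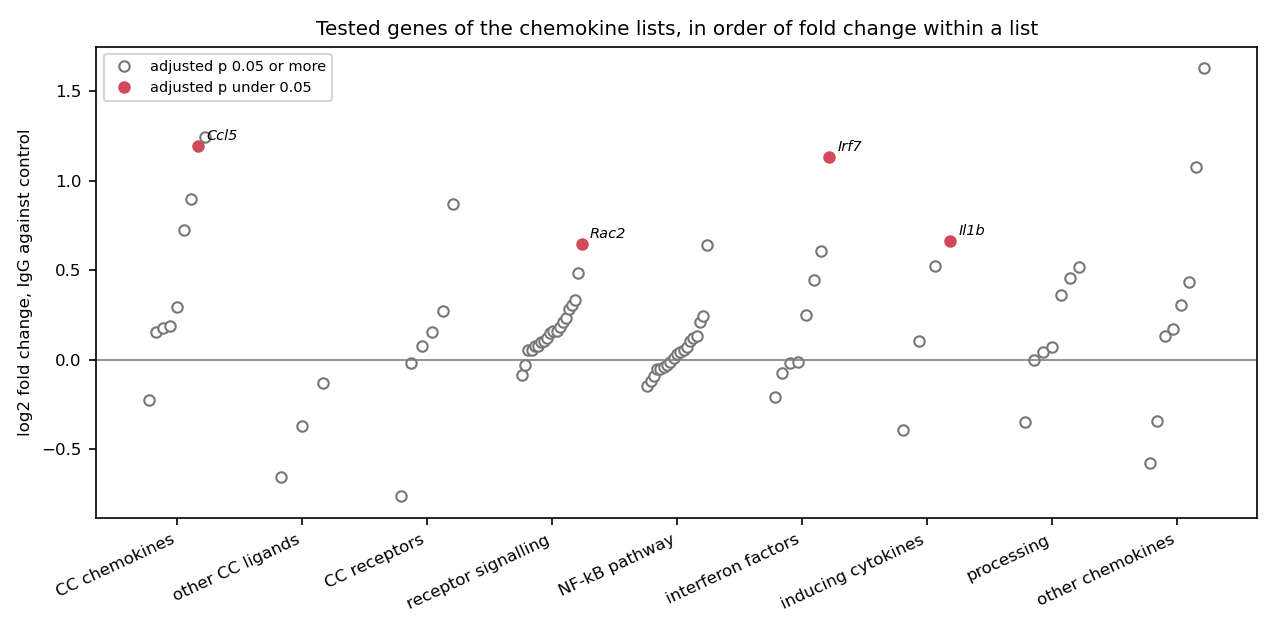
Log2 fold change of each tested gene in the chemokine lists, ordered by size within a list, with genes of adjusted p under 0.05 filled and named. Ccl5, Rac2, Irf7 and Il1b are filled, and the 3 other CC ligands lie below 0.

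Marker lists of other cells were compared in the same libraries. The summed level of 10 border macrophage markers ran from 1173 to 1499 CPM in controls and from 1346 to 2165 CPM with IgG, and 1 of its 8 tested genes, Ms4a7, rose in edgeR (log2 fold change 0.61, adjusted p 0.0381). The sialic acid receptor Siglec1 had a log2 fold change of 0.67 (adjusted p 0.111 in edgeR) and passed in DESeq2 with Ms4a7. Cbr2, Ms4a7 and Siglec1 met the study's criterion, which 1.48% of all tested genes met upward. Of the 8 tested border macrophage genes 6 had a log2 fold change above 0 and 2 below, with a median of 0.21. In all 4 pairs 4 of them were higher and 1 was lower, and the lowest log2 fold change was -0.31. Of 10 microglial markers Aif1 and Fcrls rose (0.69 and 0.83, adjusted p 0.0331 and 0.0328), where 0.393% of all tested genes were called higher. The microglial list summed to 5517 to 5880 CPM in controls and 5821 to 6982 CPM with IgG. Of its 10 genes 8 had a log2 fold change above 0 and 2 below, with a median of 0.32. Aif1, Fcrls and Ms4a7 each lost their call under total counts alone (adjusted p 0.112, 0.0595 and 0.0892) and without replicate 1, 2 or 3 (up to 0.263), and Aif1 and Ms4a7 also under upper quartile scaling. The 6 monocyte markers summed to 182.6 to 217.7 CPM in controls and to 236.2 to 284.2 CPM with IgG, without overlap. Itgal, an integrin subunit of leukocytes, held most of this sum at 197 ± 14.7 and 255 ± 23.2 CPM (SD, n = 4), with every IgG library above every control (log2 fold change 0.37, SE 0.10, adjusted p 0.299). The only other monocyte gene tested was Ccr2, which was lower, and Plac8 and Chil3 had no count in any library. In the lymphocyte, astrocyte, oligodendrocyte, fibroblast, neuron and endothelial lists 0 tested genes passed adjustment in edgeR, DESeq2 or limma. At an unadjusted p under 0.05 in edgeR there was 1 oligodendrocyte gene, Olig2, with a log2 fold change of -0.50, 1 neuron gene, Tubb3, at -0.28, and 1 endothelial gene, Cdh5, at 0.98. Of all tested genes 10.2% had such a p in either direction. Below 0 were 8 of 9 tested astrocyte genes (median -0.14), 8 of 10 oligodendrocyte genes (median -0.12), 6 of 9 neuron genes (median -0.11) and 3 of 8 fibroblast genes (median 0.04). A value below 0 was found in 50.9% of all tested genes. In the astrocyte list 1 gene had every IgG library below every control, as had 1.57% of all tested genes. The 4 tested endothelial genes had a median of 0.52, and 1 of them was below 0. Cdh5 met the study's criterion but was scarce, at 0.892 ± 0.485 CPM in controls and 1.76 ± 0.972 CPM with IgG (SD, n = 4), and the sum of the 6 endothelial markers ran from 129.6 to 167.5 CPM in controls and from 123.3 to 139 CPM with IgG. The part of any of these markers in the values of the chemokines was not tested.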

How the data were processed

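The authors deposited raw counts for each Ensembl gene, not normalized, from reads cleaned of adapters, undetermined and low-quality bases. Their processing notes name HISAT2 2.2.1, SAMtools 1.12, Picard 2.26.3, featureCounts, edgeR 3.36.0, R 4.1.2 and GRCm38. The strand setting is not given in the sources used here. Symbols came from GENCODE M21, which held 55144 of 55385 identifiers.

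Counts were scaled by TMM, filtered with filterByExpr (17537 genes) and tested in edgeR 4.0.16 (R 4.3.3) with the quasi-likelihood test, group and replicate number as terms, and Benjamini-Hochberg adjustment. The study's methods name no block. The pairing comes from the dates in the labels: deviations of same-numbered libraries correlated at 0.44, 0.38, 0.26 and 0.31 over 14155 genes, against -0.36 to 0.23 between numbers. Log2 CPM used a prior count of 2. DESeq2 1.42.0, limma 3.58.1 and further settings were alternatives. No libraries of the same group were duplicates: chi-square per degree of freedom between them was at least 5. Coding sequences were aligned with Biopython at scores of 5, -4 and -10 for match, mismatch and gap opening. Whether replicates were separate cultures beyond their dates is not stated. With the block p-values thus measure the spread of the within-pair change over these pairs, and without it the spread between these samples.

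All members were named. So were genes of the lists past adjustment, Ccr1, Ccr2, Ccr3, Ccr8, Ackr2, Ccrl2 and other CC ligands with any count. Nfkbiz, Mmp9, Mmp12, Mmp14, Itgal, Csf1, Cxcl14, Cxcl16, Siglec1, Cbr2, Klrb1c, Cd79a, Olig2, Tubb3, Cdh5, Cxcl9, Cxcl13, Cx3cr1, P2ry12 and Tmem119 were named after their values were seen. Members and lists were chosen with earlier results of these data known. The test was checked on simulated data. Some items covered by the naming rule are not reported here.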

Additional observations from a re-analysis of the deposited data

How the results depend on the processing

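In edgeR, no replicate block left 0 genes and 0 members past adjustment, and 148 genes and 1 member past the study's criterion. The edgeR calls past adjustment thus rest on the pairing, while Ccl5 met the criterion in both fits. The fit with the replicate block had 69 genes and 1 member past adjustment, and 320 genes and 3 members past the criterion. The likelihood ratio test had 327 genes and 3 members past adjustment (528 past the criterion), and testing every gene with at least 1 count had 376 and 3 (648 past the criterion). Both added Ccl7 and Ccl12, and Ccl5 passed in both. DESeq2 gave 231 genes, GC and length correction 195, total counts alone 37 genes and 0 members. Replicates 2 and 4 alone, chosen after seeing the data, gave 190 genes, and 1 member past the criterion. So few libraries give a poor estimate of the spread, and the count of 190 is a weak guide. Leaving out a library or pair gave 0 to 182 genes and 0 to 1 members past adjustment, and 87 to 762 genes and 1 to 3 members past the criterion. The members' median of 0.29 was 0.16 with at least 10 counts in every library, where Ccl7 and Ccl8 drop out, and 0.21 to 0.41 in the leave-outs.

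Ccl4 turned to -0.007 without replicate 4 (leave-outs -0.007 to 0.348). Ccr1 turned to -0.024 with total counts alone, -0.03 with the GC correction and -0.22 in replicates 2 and 4 alone (leave-outs -0.026 to 0.254), and Ccrl2 ran from -0.095 to 0.033 in the leave-outs. Total counts alone moved the median of all genes to -0.11 and the genes past the criterion to 172 higher and 140 lower, from 260 and 60. There 8 of 9 members stayed above 0. Over all alternatives 188 member values kept their direction and their side of the threshold, 4 gained it, 12 lost it (each of Ccl5) and 1 reversed. Of the other named genes' values 162 kept both, 80 lost the threshold and 10 reversed. The cause of each change was not tested. At these depths Ccl24 had at most 9 counts in a library, and Ccl7 and Ccl8 had 4 to 92, which limits the precision of their values.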
